A study of Mus musculus with 8 samples.

Results

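Complement components are secreted proteins that bind to targets, cut one another in a fixed order and leave C3 fragments on the target's surface. The genes described are C1qa, C1qb, C1qc, C1ra, C1s1, C3, C4b, Cfb and Cfp, chosen by symbol and matched through their Ensembl identifiers to the GENCODE mouse annotation. All 9 were found among the 55359 genes of the count table, and 8 of them were among the 16309 genes tested, which had a mean of at least 10 normalized counts over the 8 samples. The gene left out of the tests was C4b, with a mean of 4.53 normalized counts.

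Total RNA was sequenced from bone marrow-derived macrophages (BMDM) in 4 groups of 2 samples each, and the groups cross uptake of apoptotic cells (efferocytosis) with stimulation by LPS, a bacterial cell wall lipid, and the cytokine IFNγ. All cells came from adult male and female wildtype mice of the strain C57BL/6, and were grown with 20 ng/mL M-CSF and 20 ng/mL GM-CSF for 7 days. Ctrl BMDM received neither apoptotic cells nor LPS/IFNγ. LPS BMDM received 100 ng/mL LPS with 100 U/mL IFNγ for 6 h. Eff BMDM were kept for 16 h with 5 apoptotic NIH-3T3 cells per macrophage and 10 nM dimerizer, then washed with PBS. LPSEff BMDM received the apoptotic cells first and LPS/IFNγ afterwards, at the same doses and for the same times. NIH-3T3 is a mouse fibroblast line, which the study had modified so that the dimerizer starts apoptosis in it, and RNA from these cells maps to the same genome as that of the macrophages. CD45 beads were used to isolate blood-lineage cells from the cultures, and RNA was made from the isolated cells. The labels do not say whether Ctrl and LPS cells received the dimerizer, which sex each sample came from, or whether the 2 samples of a group were separate cultures. The p-values therefore measure only the spread between these samples, which may be technical.

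The 2 Ctrl samples held 3481288 and 12020918 recovered reads, the LPS samples 6548938 and 9344411, the Eff samples 7517814 and 9745287, and the LPSEff samples 11267193 and 7472370. Counts are given as normalized counts, which are reads divided by a size factor for each sample, and 3 reads correspond to 5.71 normalized counts in the shallowest sample (Ctrl 1) and to 1.73 in the deepest (Ctrl 2). These floors, and all counting intervals, cover counting error only. A difference was called where the Benjamini-Hochberg adjusted p from limma, over all 16309 genes, was under 0.05. With 2 samples on each side, the smallest p that exact permutation allows is 0.333, and each adjusted p depends on the spread shared across genes.

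The classical pathway starts when C1q, a protein of A, B and C chains, binds a target such as an antibody or a dying cell, and switches on the proteases C1r and C1s that are attached to it. C1s cuts C4 and C2, whose fragments form an enzyme that cuts C3. In the alternative pathway, C3 fragments bind factor B, which becomes the C3-cutting enzyme, and properdin holds that enzyme together. Macrophages are known to make C1q in quantity, and C3-coated particles are taken up by macrophages through complement receptors.

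LPS/IFNγ raised the 2 proteases of the C1 complex, C3 and factor B in both naïve and efferocytic BMDM, while no difference was called for the 3 C1q chains or properdin. In LPS vs Ctrl, limma called 4 of the 8 tested members, all 4 higher, where it called 24.0% of all tested genes in either direction and 12.4% as higher. In LPSEff vs Eff, it called the same 4 members (C1ra, C1s1, C3 and Cfb), all higher, beside 19.7% of all tested genes in either direction and 10.7% as higher. The median log2 difference of the 8 tested members was 0.70 in LPS vs Ctrl and 0.93 in LPSEff vs Eff, beside -0.01 and 0.01 for all tested genes. C1s1 passed the filter on low counts only through the groups in which it was high, so that these counts and medians describe the genes and carry no further weight. Without 1 sample, the count in LPS vs Ctrl was 3 without Ctrl 2, LPS 1 or LPS 2, and that in LPSEff vs Eff was 2 without Eff 1 or LPSEff 1 and 3 without LPSEff 2, where C1ra, C1s1 or both were not called. Of genes with a mean of at least 50, which leaves C1ra and C1s1 out, 2 members (C3 and Cfb) were called in each.

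In fits on group alone by limma, edgeR and DESeq2, efferocytosis gave no call among the members. In Eff vs Ctrl, limma called 0 of 8 members, with 1 at an unadjusted p under 0.05 (C1s1), beside 0.251% of all tested genes. In LPSEff vs LPS it called 0 of 8, with 0 at an unadjusted p under 0.05, beside 0.773% of all tested genes. edgeR and DESeq2 also called 0 members in each of these comparisons. The median log2 difference of the members was -0.32 without and 0.02 with LPS/IFNγ, beside -0.01 and -0.00 for all tested genes. The interaction, which is the LPS/IFNγ effect in efferocytic BMDM minus that in naïve BMDM, was called by limma for 0 of 8 members and 0% of all tested genes, with 1 member and 311 genes at an unadjusted p under 0.05, and edgeR and DESeq2 called 0 members as well. The comparisons share samples: each group enters 2 of the 4 pairwise comparisons and the interaction.

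**Figure D1:**
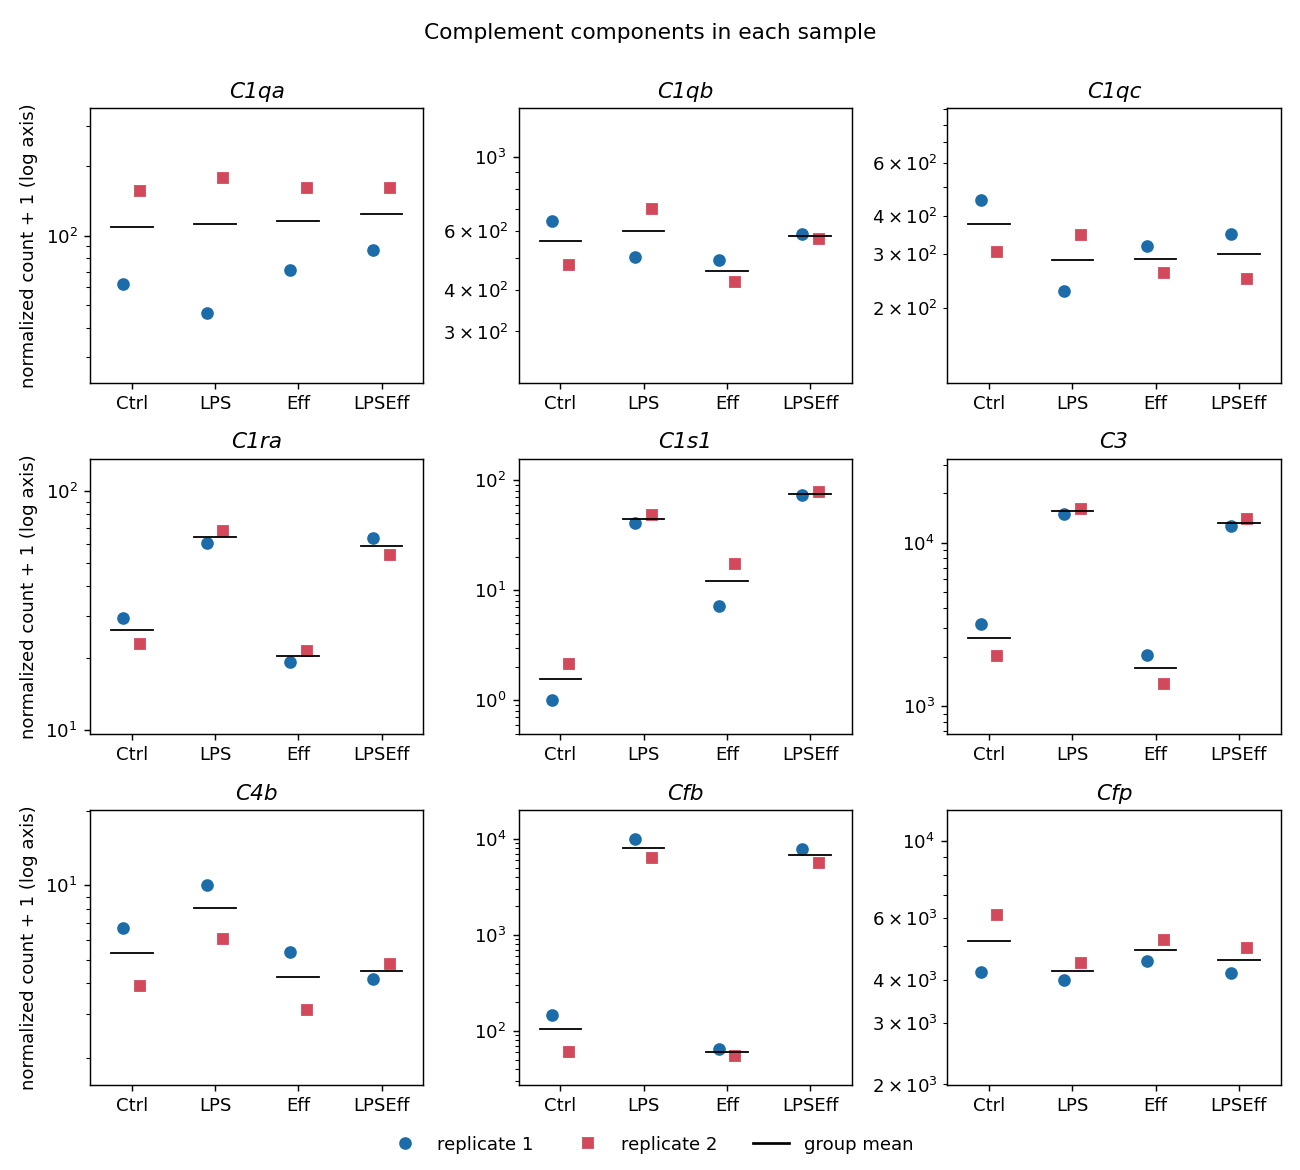
Normalized counts of the 9 complement genes in each of the 8 samples, by group, on a log axis. Cfb lies between 5618 and 9967 in the 4 stimulated samples and between 54.3 and 147 in the 4 unstimulated samples, while Cfp lies between 3997 and 6132 in all 8.

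The response of the cells to the treatment was checked with 7 genes that LPS and IFNγ are known to induce (Nos2, Cxcl9, Cxcl10, Irf1, Gbp2, Il6 and Tnf). All 7 were called higher in LPS vs Ctrl and in LPSEff vs Eff, with median log2 differences of 8.36 and 8.21, beside 12.4% and 10.7% of all tested genes called higher. Cxcl9 passed the filter on low counts only through the groups with LPS/IFNγ, so that these counts and medians depend in part on the filter. Limma called 0 of the 7 after efferocytosis without LPS/IFNγ and 0 with it, with 4 and 1 at an unadjusted p under 0.05, while edgeR called 0 and 0 and DESeq2 called 1 (Cxcl10) and 1 (Tnf), both lower. The macrophage markers Csf1r and Adgre1 were present in all 8 samples, Csf1r between 3835 and 6113 normalized counts and Adgre1 between 1761 and 8817.

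C1qa, C1qb and C1qc encode the A, B and C chains of C1q, the recognition protein of the classical pathway. They lie next to one another on the minus strand of chromosome 4 in GRCm39: C1qb (ENSMUSG00000036905) at chr4:136606009-136613511, C1qc (ENSMUSG00000036896) at chr4:136616466-136620376 and C1qa (ENSMUSG00000036887) at chr4:136623223-136626161. C1qb was counted at 644 and 474 in the Ctrl samples, 502 and 699.7 in the LPS samples, 492 and 421 in the Eff samples, and 587 and 567 in the LPSEff samples. Of the LPS samples, 1 lies between the Ctrl samples and 1 lies above both, while both LPSEff samples lie above both Eff samples. The log2 difference was 0.10 ± 0.23 (SE) in LPS vs Ctrl and 0.34 ± 0.23 in LPSEff vs Eff, with limma adjusted p of 0.805 and 0.363. C1qc was counted at 451 and 304 in the Ctrl samples, 226 and 347 in the LPS samples, 318 and 259 in the Eff samples, and 349.9 and 247 in the LPSEff samples. Stimulated and unstimulated samples overlap in both backgrounds, with log2 differences of -0.40 ± 0.30 and 0.04 ± 0.30 and adjusted p of 0.396 and 0.953. The 95% interval for C1qc in LPS vs Ctrl runs from -1.10 to 0.30 on the log2 scale, and that for C1qb in LPSEff vs Eff from -0.19 to 0.88.

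C1qa showed a split within each group that the other chains did not. It was counted at 60.9 in Ctrl 1, 45.3 in LPS 1, 70.1 in Eff 1 and 86.3 in LPSEff 1, and at 156, 178, 161 and 159.9 in the sample numbered 2 of the same groups. The sample numbered 2 was thus higher in all 4 groups, and groups overlap in each comparison. The log2 difference was -0.12 ± 0.72 in LPS vs Ctrl and 0.14 ± 0.72 in LPSEff vs Eff, with limma adjusted p of 0.931 and 0.920. In the fit on group alone, whose spread includes this split between sample numbers, the 95% interval in LPS vs Ctrl runs from -1.77 to 1.54. A change of either sign within that range is not excluded by that fit. The lowest counts behind these values were 32 reads in Ctrl 1 and 35 in LPS 1, and C1qb, with 338 and 388 reads in the same samples, showed no such order.

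None of the C1q differences after efferocytosis was called. In Eff vs Ctrl the log2 differences were 0.12 for C1qa, -0.28 for C1qb and -0.37 for C1qc, each with a limma adjusted p of 0.999. In LPSEff vs LPS they were 0.38, -0.04 and 0.07, with adjusted p of 0.934, 0.986 and 0.977. The sign for C1qa in LPS vs Ctrl turned with the method, to 0.01 by edgeR and 0.05 by DESeq2. The signs for C1qb in both LPS/IFNγ comparisons, and for C1qa and C1qc in LPSEff vs Eff, turned when samples were scaled to equal totals, which lowered the median of all tested genes as well.

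With samples scaled to equal totals, the median log2 difference of all tested genes was -0.40 in LPS vs Ctrl and -0.44 in LPSEff vs Eff, where stimulated samples have larger totals of normalized counts. The share of calls that were higher went from 51.5% to 24.8% in LPS vs Ctrl and from 54.6% to 21.8% in LPSEff vs Eff. Relative to that median, C1qb differed by 0.11 and 0.33, C1qc by -0.40 and 0.02, and C1qa by -0.11 and 0.13 on the log2 scale, which are close to the values without rescaling. C3 differed by 2.62 and 2.97 relative to it, Cfb by 6.39 and 6.79, C1ra by 1.31 and 1.52, C1s1 by 5.09 and 2.77, and Cfp by -0.26 and -0.11.

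C1ra encodes C1r, the protease that activates C1s in the C1 complex. The gene (ENSMUSG00000055172) lies on the plus strand at chr6:124489364-124500402. Its counts were low: 28.6 and 22.0 in the Ctrl samples, 59.5 and 67.0 in the LPS samples, 18.4 and 20.5 in the Eff samples, and 62.5 and 53.3 in the LPSEff samples, from 15 to 79 reads a sample. Each of the 4 stimulated samples lies above each of the 4 unstimulated samples. The ratio of means was 2.50 in LPS vs Ctrl and 2.98 in LPSEff vs Eff, with log2 differences of 1.30 ± 0.31 (SE) and 1.53 ± 0.31 and limma adjusted p of 0.0189 and 0.0110. In pooled reads the ratios were 2.71 (exact 95% counting interval 1.94 to 3.83) and 3.02 (2.15 to 4.28). Efferocytosis made a difference of -0.35 without and -0.13 with LPS/IFNγ, with adjusted p of 0.999 and 0.954.

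The call for C1ra rests on few samples. In LPS vs Ctrl the limma adjusted p rose to 0.103 without Ctrl 2, to 0.0595 without LPS 1 and to 0.0866 without LPS 2. In LPSEff vs Eff it was 0.0675 without Eff 1 and 0.0793 without LPSEff 1. With only the 2 groups in the fit, the adjusted p in LPS vs Ctrl was 0.0551, and with equal totals 0.0544, over a range from 0.00501 to 0.0551 among the alternatives that keep all samples. The log2 difference without 1 sample stayed between 1.12 and 1.48 in LPS vs Ctrl and between 1.41 and 1.64 in LPSEff vs Eff.

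C1s1 encodes C1s, the protease that cuts C4 and C2. The gene (ENSMUSG00000038521) lies on the minus strand at chr6:124507297-124559389, beside C1ra. C1s1 had 0 reads in Ctrl 1 and 2 reads in Ctrl 2 (1.16 normalized counts), and was counted at 40.1 and 46.7 in the LPS samples, 6.13 and 16.2 in the Eff samples, and 72.0 and 76.1 in the LPSEff samples. The groups do not overlap, with Ctrl lowest, then Eff, LPS and LPSEff. In pooled reads, LPS was 49.4 times Ctrl (exact 95% counting interval 13.2 to 415, from 77 against 2 reads). The fitted log2 difference of 4.91 ± 0.59 (SE) in LPS vs Ctrl, with a limma adjusted p of 0.000884, depends on the pseudocount of 1 because Ctrl is near 0, and is no bound.

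In efferocytic BMDM, where C1s1 was measured at 7 and 23 reads before stimulation, the rise with LPS/IFNγ was smaller on the log2 scale. The ratio of means of LPSEff to Eff was 6.63, and that in pooled reads 6.28 (4.22 to 9.63), with a log2 difference of 2.76 ± 0.59 and a limma adjusted p of 0.0133. This adjusted p was 0.0865 without Eff 1, 0.0794 without LPSEff 1 and 0.0748 without LPSEff 2. The interaction was -2.15 ± 0.83 with an unadjusted p of 0.0315 and a limma adjusted p of 1.00, so that the 2 effects were not shown to differ.

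C1s1 is also the member with the largest fitted difference after efferocytosis. Eff was 13.2 times Ctrl in pooled reads (exact 95% counting interval 3.35 to 114, from 30 against 2 reads), with a fitted log2 difference of 2.92 ± 0.59, an unadjusted p of 0.00103 and a limma adjusted p of 0.155. Both Eff samples lie above both Ctrl samples, but limma, edgeR and DESeq2 did not call the difference in fits on group alone. With the sample number as a replicate block, limma called it higher, with the same log2 difference and an adjusted p of 0.00935. C1s1 passed the filter on low counts only through the groups with LPS/IFNγ. With 0 and 2 reads in the Ctrl samples, the fitted difference also depends on the pseudocount, so that this call carries no further weight. The labels do not say that the numbers mark a shared preparation. LPSEff was 1.71 times LPS by means and 1.68 times in pooled reads (1.27 to 2.24), with both LPSEff samples above both LPS samples, and the log2 difference of 0.76 (95% interval -0.59 to 2.11) had an adjusted p of 0.761.

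Some fibroblast markers were called higher after efferocytosis, where C1s1 was not called in fits on group alone. Of 16 listed, 14 were tested, and limma called 6 higher without and 8 with LPS/IFNγ, edgeR 3 and 9, and DESeq2 10 and 10, with limma medians over the 14 of 4.32 and 4.44 on the log2 scale. Of all tested genes, limma called 0.251% and 0.773% in these comparisons, in either direction. Some of them, such as Col3a1 and Dcn, passed the filter on low counts only through the efferocytic groups, so that these counts and medians depend in part on the filter. Of the 14, 12 had a positive difference in each comparison, called or not. The exceptions were Fstl1 (-0.37) and Thy1 (-0.28) in Eff vs Ctrl, and Pdgfrb (-1.10) and Thy1 (-0.44) in LPSEff vs LPS, none of them called. The 2 Ctrl samples summed to 1767 and 1650.5 normalized counts over these markers, the LPS samples to 3704 and 4164, the Eff samples to 3086 and 6197, and the LPSEff samples to 11097 and 11889, and Fstl1 was the most abundant of them. Both Eff samples lie above both Ctrl samples and both LPSEff samples above both LPS samples, as they do for C1s1. The defining marker Col1a1 was counted at 7.62 and 12.1 for Ctrl, 16.8 and 38.6 for LPS, 193 and 284 for Eff, and 606 and 537 for LPSEff. The other, Pdgfrb, was counted at 15.2 and 11.6 for Ctrl, 246 and 245 for LPS, 19.3 and 38.1 for Eff, and 82.3 and 157 for LPSEff. Pdgfrb was called higher in both LPS/IFNγ comparisons and in neither efferocytosis comparison, and 2 of the 14 markers were called higher in each of the 2 LPS/IFNγ comparisons. Of all tested genes, 12.4% and 10.7% were called higher there, so that a count of 2 shows nothing particular to these markers. The part of fibroblast RNA in the C1s1 and C1ra counts was not tested. In bulk samples, more or fewer cells of a type and more or less RNA per cell cannot be told apart.

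C1ra and C1s1 have near copies, C1rb and C1s2, in the same stretch of chromosome 6. Of the 50-base windows in C1ra transcripts, 42.9% also occur in C1rb, and 19.3% of those in C1s1 occur in C1s2, so that reads from these windows cannot be placed on 1 gene. C1ra summed with C1rb came to 28.6 and 22.0 for Ctrl, 60.8 and 69.1 for LPS, 19.3 and 21.9 for Eff, and 64.9 and 54.6 for LPSEff. C1s1 summed with C1s2 came to 0 and 3.47 for Ctrl, 42.7 and 48.7 for LPS, 8.76 and 16.9 for Eff, and 76.0 and 87.6 for LPSEff. The sums kept the order of the groups seen for each gene alone. Within C1s1 lies Gm16567, a long noncoding RNA on the other strand whose 576 exon bases all fall in exons of C1s1, and which was counted at 17.4% to 50% of C1s1 in the 7 samples where C1s1 was above 0. How reads of this stretch were shared between both genes was not tested.

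C3 encodes the protein on which all complement pathways meet, and whose fragments coat targets for uptake. The gene (ENSMUSG00000024164) lies on the minus strand at chr17:57510964-57535155. C3 was counted at 3172 and 2026 in the Ctrl samples, 14922 and 16169 in the LPS samples, 2060.1 and 1356 in the Eff samples, and 12569 and 13871 in the LPSEff samples. The 4 stimulated samples lie far above the 4 unstimulated ones, and both LPSEff samples lie below both LPS samples. LPS/IFNγ raised C3 by a ratio of means of 5.98 in naïve and 7.74 in efferocytic BMDM, with log2 differences of 2.61 ± 0.28 (SE) and 2.98 ± 0.28 and limma adjusted p of 0.000515 and 0.000272. These calls held in every alternative tried and without any 1 sample, with log2 differences between 2.29 and 2.94 and between 2.68 and 3.28 in the fits that leave out a sample.

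After efferocytosis C3 was at 0.657 of Ctrl without LPS/IFNγ and at 0.850 of LPS with it, by means. The log2 differences were -0.60 (95% interval -1.24 to 0.04) and -0.23 (-0.88 to 0.41), with limma adjusted p of 0.862 and 0.871. Eff and Ctrl overlap, since Eff 1 with 2060.1 lies above Ctrl 2 with 2026. The interaction was 0.37 ± 0.40, with a limma adjusted p of 1.00.

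C4b encodes C4, which C1s cuts in the classical pathway. The gene (ENSMUSG00000073418) lies on the minus strand at chr17:34947354-34962912. C4b had 3 and 5 reads for Ctrl, 7 and 5 for LPS, 5 and 3 for Eff, and 4 and 3 for LPSEff, which correspond to 5.71 and 2.89, 9.05 and 5.08, 4.38 and 2.12, and 3.17 and 3.81 normalized counts. All 8 samples lie at or a few reads above the floor of 3 reads, and the gene was too low to be tested. The ratio of LPS to Ctrl in pooled reads was 1.92 (exact 95% counting interval 0.723 to 5.43), that of LPSEff to Eff 1.09 (0.337 to 3.44), that of Eff to Ctrl 0.881 (0.288 to 2.69) and that of LPSEff to LPS 0.50 (0.167 to 1.38), so that a change was not detectable at this depth. C4b shares 28.6% of its 50-base windows with C4a, and the sum of both was between 4.63 and 14.0 in all 8 samples.

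Cfb encodes factor B, the protease of the alternative pathway. The gene (ENSMUSG00000090231) lies on the minus strand at chr17:35074852-35081559, between the genes for C4a and C2 in the major histocompatibility region. Cfb was counted at 147 and 60.1 in the Ctrl samples, 9967 and 6360.1 in the LPS samples, 64.0 and 54.3 in the Eff samples, and 7908 and 5618 in the LPSEff samples. Every stimulated sample lies above every unstimulated one, and the LPS and LPSEff samples overlap. The ratio of means was 79.0 in naïve and 114 in efferocytic BMDM, with log2 differences of 6.39 ± 0.41 (SE) and 6.80 ± 0.41 and limma adjusted p of 5.69e-05 and 3.56e-05. The 95% intervals run from 5.45 to 7.33 and from 5.86 to 7.73, and both calls held in every alternative tried and without any 1 sample. In the fits that leave out a sample, the log2 differences lay between 5.75 and 7.02 and between 6.55 and 7.04. Cfb had the largest fitted log2 difference of the members in both comparisons, at a pseudocount of 1. In LPS vs Ctrl its rank against C1s1 is not settled, since C1s1 is near 0 in Ctrl. By ratio of means C1s1 stood at 75.1 there, and its counting interval in pooled reads (13.2 to 415) holds the 79.0 of Cfb.

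Without LPS/IFNγ, Cfb was higher in Ctrl 1 than in the other 3 unstimulated samples, which lie between 54.3 and 64.0. The log2 difference was -0.66 ± 0.41 for Eff against Ctrl and -0.26 ± 0.41 for LPSEff against LPS, with limma adjusted p of 0.999 and 0.920. The interaction was 0.41 ± 0.58, with a limma adjusted p of 1.00.

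Reads on Cfb may also belong to a neighbour. The annotation holds Gm20547, a protein-coding gene on the same strand at chr17:35075388-35101018, which shares 2246 exon bases with Cfb, or 65.7% of the exon bases of Cfb. Gm20547 was counted at 94.5% to 104% of Cfb in the 8 samples, so that the pair rose and fell together, and its log2 differences were 6.37 and 6.74. In its default mode htseq-count leaves out reads that fall on exons of 2 genes, which is at odds with near-equal counts of a pair that shares most exons of Cfb. The values of the count table do not show how these reads were assigned, so that the level of Cfb is uncertain and sums over the pair may count reads more than once. Cfb summed with Gm20547 and C2 came to 293 and 129.5 for Ctrl, 19481 and 12489 for LPS, 137 and 126 for Eff, and 15441 and 10985 for LPSEff. Nelfe, on the other strand, overlaps 49.8% of the exon bases of Cfb and was counted between 295 and 553, with log2 differences of 0.21 and 0.24 that were not called, which is far from the range of Cfb.

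**Figure D2:**
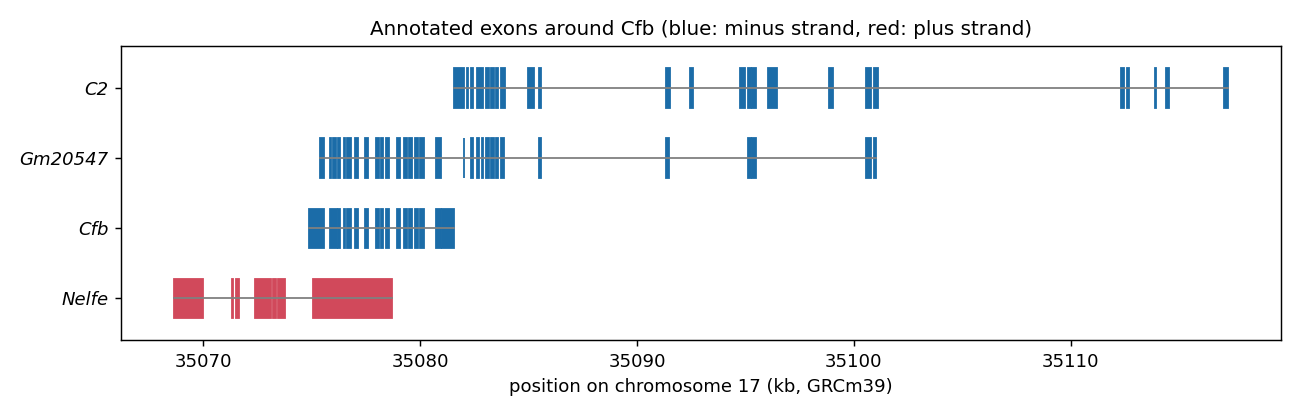
Annotated exons of Cfb, Gm20547, C2 and Nelfe on chromosome 17 of GRCm39, with position in kilobases along the horizontal axis and a line for each gene. Cfb and Gm20547 lie on the same strand and share 2246 exon bases, and Nelfe lies on the other strand.

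Cfp encodes properdin, which stabilises the C3-cutting enzyme of the alternative pathway. The gene (ENSMUSG00000001128) lies on the minus strand at chrX:20791688-20797794. Cfp was counted at 4201 and 6132 in the Ctrl samples, 3997 and 4465 in the LPS samples, 4516 and 5215 in the Eff samples, and 4194 and 4918 in the LPSEff samples. The groups overlap in all 4 pairwise comparisons. The log2 difference was -0.26 (95% interval -0.79 to 0.27) in LPS vs Ctrl, -0.10 in LPSEff vs Eff, -0.06 for Eff against Ctrl and 0.10 for LPSEff against LPS, with limma adjusted p of 0.468, 0.825, 0.999 and 0.945. With equal totals, Cfp in LPS vs Ctrl was -0.67 with an adjusted p of 0.0333, over a range from 0.0333 to 0.651 among the alternatives that keep all samples, and relative to the median of all genes it was -0.26.

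**Figure D3:**
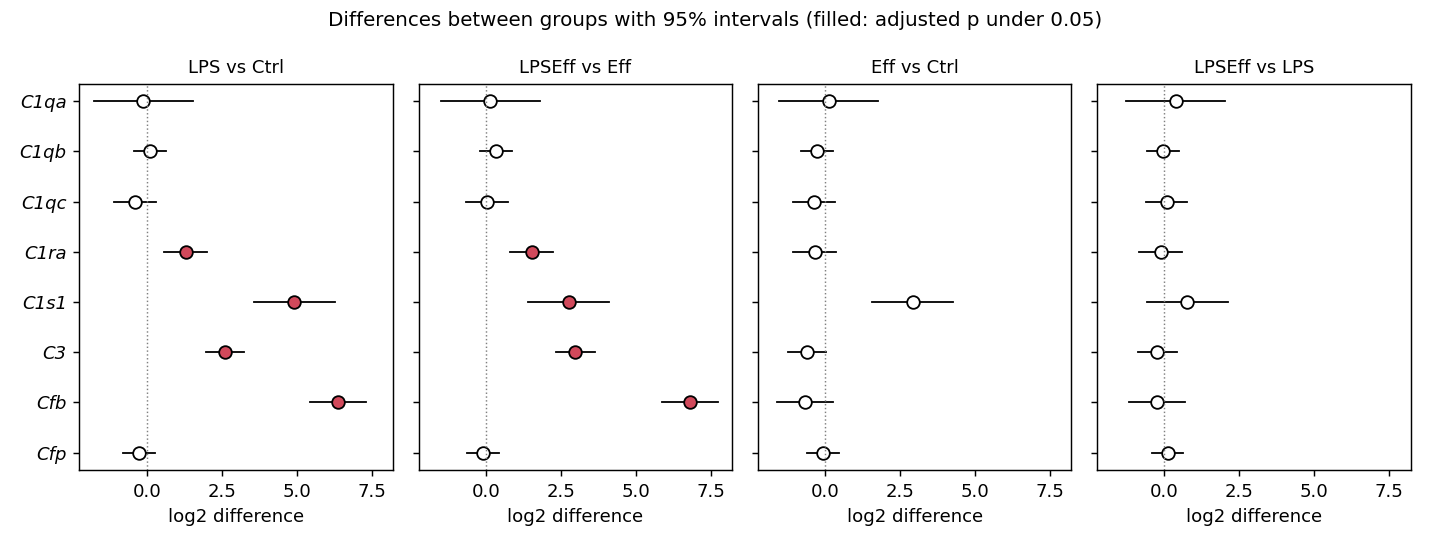
Log2 differences of the 8 tested complement genes in the 4 pairwise comparisons, with points for the limma estimate and bars for its 95% interval. C1ra, C1s1, C3 and Cfb lie above 0 in LPS vs Ctrl and in LPSEff vs Eff, with the largest fitted values for Cfb at 6.39 and 6.80. The value of C1s1 in LPS vs Ctrl depends on the pseudocount, so that its rank against Cfb there is not settled.

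Levels of different genes were compared per kilobase of exon, as normalized counts divided by the length of all annotated exons of a gene. In Ctrl, the means per kilobase were 2968 for Cfp, 502 for C3, 132 for C1qc, 89.4 for C1qb, 67.4 for C1qa, 30.2 for Cfb, 7.93 for C1ra, 0.710 for C4b and 0.167 for C1s1. Properdin was thus the most abundant member in resting BMDM on this scale, and Ctrl 1 and Ctrl 2 keep it above C3. The neighbours C1qc and C1qb do not overlap in Ctrl, while C1qa overlaps with C1qb and with Cfb, and C4b lies above C1s1 by a few reads. The place of Cfb in each group is uncertain, since 65.7% of its exon bases are shared with Gm20547. In LPS, the means per kilobase were 2999 for C3, 2430.1 for Cfp, 2387 for Cfb, 100.3 for C1qc, 96.2 for C1qb, 69.2 for C1qa, 19.8 for C1ra, 12.5 for C1s1 and 1.17 for C4b. C3 and Cfb had thus joined Cfp at the top of the order, where the samples of Cfb span from 1859.7 to 2914 per kilobase and overlap with both others, and C1qc, C1qb and C1qa overlap with one another.

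In Eff the order per kilobase was Cfp at 2795, C3 at 329.6, C1qc at 101, C1qb at 73.0, C1qa at 71.7, Cfb at 17.3, C1ra at 6.10, C1s1 at 3.22 and C4b at 0.536. C1s1 stood above C4b here, and C1qa and C1qb overlap, as do C1qa and C1qc. In LPSEff it was Cfp at 2617, C3 at 2551, Cfb at 1978, C1qc at 104, C1qb at 92.4, C1qa at 76.5, C1s1 at 21.3, C1ra at 18.2 and C4b at 0.575. Cfp and C3 overlap in LPSEff, and both LPSEff samples of C1s1 lie above both of C1ra. The order of C1qb and C1qc depends on the length used: per kilobase of the canonical transcript, C1qb had 221 in Ctrl, 237 in LPS, 180.1 in Eff and 228 in LPSEff, and C1qc had 204, 155, 156 and 161. C1qa, C1qc, C3 and Cfp share no 50-base window with transcripts of other genes, and C1qb shares 3.34%.

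The other complement components on the list were mostly low. Of 22 genes (among them C2, the terminal components, the mannose-binding lectins, ficolins, collectins and Cfd), 7 were tested. Limma called 2 of the 7 in LPS vs Ctrl (C1rl and C2) and 1 in LPSEff vs Eff (C1rl), all higher, and 0 of 7 in each of the efferocytosis comparisons, with 1 at an unadjusted p under 0.05 in each. Of all tested genes, 24.0% and 19.7% were called in the LPS/IFNγ comparisons, and these counts show nothing particular to the list. edgeR called the same genes, and DESeq2 called C1rl in both LPS/IFNγ comparisons and, in place of C2, Colec12 (a scavenger receptor of the collectin family) as lower in LPS vs Ctrl, and both called 0 after efferocytosis. The median log2 difference of the 7 was 0.16 in LPS vs Ctrl, 0.38 in LPSEff vs Eff, 0.01 for Eff against Ctrl and 0.22 for LPSEff against LPS. C1rl, a protease related to C1r that lies beside C1ra on chromosome 6, was counted at 13.3 and 16.2 for Ctrl, 53.0 and 51.8 for LPS, 7.89 and 12.7 for Eff, and 54.6 and 50.8 for LPSEff. All stimulated samples lie above all unstimulated ones, with log2 differences of 1.77 and 2.28 and limma adjusted p of 0.0106 and 0.00399. The adjusted p of C1rl in LPS vs Ctrl was 0.0605 without Ctrl 1 and 0.0512 without LPS 1.

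C2, whose protein is cut by C1s to make the classical pathway enzyme, lies next to Cfb at chr17:35081578-35117241. C2 was counted at 3.81 and 11.6 for Ctrl, 27.2 and 35.5 for LPS, 12.3 and 15.5 for Eff, and 17.4 and 19.0 for LPSEff. The value in Ctrl 1 came from 2 reads and lies under the floor of 3 reads. LPS samples lie above Ctrl samples, with a log2 difference of 2.05 ± 0.54 and a limma adjusted p of 0.0279, while LPSEff vs Eff had 0.38 with 0.695. Gm20547 also shares exons with C2 on the same strand, so that the assignment of reads is uncertain for C2 as it is for Cfb. The interaction was -1.67 ± 0.77, with an adjusted p of 1.00. The call in LPS vs Ctrl was lost without Ctrl 1 (adjusted p 0.129), without LPS 1 (0.0707) and without LPS 2 (0.115), and over the alternatives that keep all samples the adjusted p ran from 0.00415 to 0.0735, with 0.0735 where only the 2 groups were fitted and 0.0510 by DESeq2.

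Receptors that bind complement fragments or C1q were called lower after LPS/IFNγ, where any were called. Of 12 listed, 10 were tested, and limma called 4 in LPS vs Ctrl and 4 in LPSEff vs Eff, all lower (C3ar1, C5ar2, Cd93 and C1qbp), beside 11.6% and 8.95% of all tested genes called lower. After efferocytosis it called 0 of 10 without and 0 of 10 with LPS/IFNγ, with 0 at an unadjusted p under 0.05, as did edgeR and DESeq2, which called the same 4 genes as lower after LPS/IFNγ. The median log2 differences were -0.24 and -0.11 in the LPS/IFNγ comparisons and 0.03 and 0.11 in the efferocytosis comparisons. C3ar1, the receptor of the C3 fragment C3a, was counted at 2298 and 2322 for Ctrl, 616 and 836 for LPS, 2323 and 1958 for Eff, and 699 and 683 for LPSEff. The stimulated samples lie below all unstimulated ones, opposite to C3 itself, with log2 differences of -1.69 ± 0.20 and -1.62 ± 0.20 and adjusted p of 0.000815 and 0.00105.

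Cd93, a membrane protein first described as a C1q receptor, was counted at 5532 and 5598 for Ctrl, 1508 and 1924 for LPS, 6087 and 5543 for Eff, and 1743 and 2793 for LPSEff. It fell in both backgrounds, by 1.71 and by 1.40 on the log2 scale, with limma adjusted p of 0.00221 and 0.00651. C5ar2, a receptor of the C5 fragment C5a, was counted at 64.7 and 63.0 for Ctrl, 18.1 and 16.2 for LPS, 160.4 and 69.9 for Eff, and 12.7 and 12.7 for LPSEff. Its log2 differences were -1.84 and -2.97, with adjusted p of 0.0148 and 0.00206, and in LPS vs Ctrl the adjusted p was 0.0761 without Ctrl 1, 0.0712 without Ctrl 2 and 0.0571 without LPS 2. C1qbp, a mostly mitochondrial protein that binds C1q, was counted at 310.4 and 240.0 for Ctrl, 109.9 and 125 for LPS, 288 and 281 for Eff, and 148 and 166 for LPSEff. It differed by -1.21 and -0.85, with adjusted p of 0.00496 and 0.0246, and the call in LPSEff vs Eff was lost without any 1 of the Eff and LPSEff samples (adjusted p 0.124 without Eff 1, 0.107 without Eff 2, 0.135 without LPSEff 1 and 0.0690 without LPSEff 2) and, with an adjusted p of 0.0652, where all genes with a mean above 0 were tested, over a range from 0.00255 to 0.0652 among the alternatives that keep all samples.

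Of 14 listed regulators of complement, 4 were tested. Limma called 0 of 4 in each of the 4 pairwise comparisons, with 0 at an unadjusted p under 0.05, and edgeR and DESeq2 called 0 as well. Among all 16309 tested genes, limma called 24.0% for LPS/IFNγ in naïve BMDM and 19.7% in efferocytic BMDM. For efferocytosis these shares were 0.251% without LPS/IFNγ and 0.773% with it. With only 4 genes tested, a count of 0 shows nothing particular to the regulators. The median log2 differences were -0.11 and 0.46 for LPS/IFNγ in naïve and efferocytic BMDM, and -0.22 and 0.04 for efferocytosis without and with LPS/IFNγ.

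Markers of other cell types that a bone marrow culture could hold also differed between groups. Of 7 dendritic cell markers, 4 were tested, and 2 were called higher in LPS vs Ctrl and 1 in LPSEff vs Eff. Their sum was 2039 and 2588.5 for Ctrl, 8294 and 16027 for LPS, 1314 and 1622 for Eff, and 6691 and 6486 for LPSEff, led by Ccr7, which macrophages are also known to raise after LPS. The defining markers lay between 17.5 and 220 for Flt3 and between 112 and 745 for Zbtb46, with no call by limma in any of the 4 comparisons, while DESeq2 called both higher in LPS vs Ctrl. Of 9 neutrophil markers, 6 were tested, with 3 called higher in LPS vs Ctrl, 1 in LPSEff vs Eff and 1 in Eff vs Ctrl. Their sum lay between 723 and 2648, led by S100a8, and the defining markers lay between 1.90 and 19.4 for Ly6g and between 79.8 and 472 for Ngp. None of 6 lymphocyte markers reached the mean of 10 normalized counts, their sum lay between 7.61 and 22.9, led by Cd79b, and Cd3e was at most at 6.47. Of 9 macrophage markers, all tested, 3 were called higher in LPS vs Ctrl, and 4 higher and 1 lower in LPSEff vs Eff, with a sum between 93967 and 143661, led by Lyz2. Of all tested genes, limma called 12.4% higher in LPS vs Ctrl. In LPSEff vs Eff it called 10.7% higher and 8.95% lower, and in Eff vs Ctrl 0.251% in either direction. With so few genes tested in each list, the counts of calls describe these genes only. The dendritic cell and neutrophil sums, and the fibroblast sum given above, were higher with LPS/IFNγ in both backgrounds, as were C3, Cfb, C1ra and C1s1. The macrophage sums overlap between stimulated and unstimulated samples. A sum gives most weight to its most abundant genes. Fstl1 alone was counted at 1580 and 1232 for Ctrl and at 2869 and 3259 for LPS, groups that received no apoptotic cells. The part of these cell types in these results was not tested.

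Genes with the most similar pattern were sought among all tested genes, by the root mean square difference of log2 values over the 8 samples after each gene was centred on its own mean. Next to Cfb, after Gm20547 (0.04), came Saa3, an acute phase protein, at 0.18, and Isg15, an interferon-induced ubiquitin-like protein, at 0.46, where the spread of Cfb around its own mean was 3.33. Saa3 was counted at 312 and 143 for Ctrl, 22410.4 and 11188 for LPS, 178 and 119 for Eff, and 18045 and 10982 for LPSEff. Like Cfb, Saa3 was higher in sample 1 than in sample 2 of all 4 groups. Next to C3 came Sp100 (0.18), H2-T24 (0.19) and Oas1b (0.21), beside a spread of 1.44 for C3. Next to C1ra came Arid5b (0.09), Crtc2 (0.12) and Phlpp1 (0.12), beside a spread of 0.73.

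The nearest genes to C1s1 were Plat, the tissue plasminogen activator, at 0.46, Styk1 at 0.62 and Lpar1 at 0.63, beside a spread of 2.24. Plat was counted at 1.90 and 8.67 for Ctrl, 118 and 166 for LPS, 11.4 and 29.6 for Eff, and 159.9 and 159 for LPSEff. Plat and C1s1 thus share the order of Ctrl, Eff and the stimulated groups, though Plat overlaps between LPS and LPSEff. For C1qa the nearest were Gm11192 (0.16), Cand2 (0.23) and Gm5823 (0.23), beside a spread of 0.71. Cand2 was counted at 270.4, 260.0, 307 and 269 in the samples numbered 1 and at 784, 773, 668 and 716 in those numbered 2, which is the same split within groups as that of C1qa. The nearest to C1qb were Ptprcap (0.11), Grb2 (0.11) and Mlxip (0.12), and near C1qc lay Gm48338 (0.15) and Ccdc59 (0.16), beside spreads of 0.23 and 0.30. For Cfp they were Hcfc2 (0.06), Naa35 (0.06) and Saraf (0.07), beside a spread of 0.19.

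The promoters of the 4 members that rose with LPS/IFNγ are printed because these genes moved together, and each was searched for letters that are known to be bound by factors downstream of LPS and IFNγ. Windows reach from 250 bases before to 50 bases after the start of the canonical transcript, were read from the GRCm39 genome at GENCODE start sites, and are given 5′ to 3′ on the strand of the gene. The searches, on both strands, were for the ISRE core (GAAA, any 2 bases, GAAA), GAS (TTCNNNGAA), C/EBP (TTGCNNAA) and the NF-kB site by its consensus, and capitals mark the matches. Cfb is shown at chr17:35081510-35081809, C3 at chr17:57535106-57535405 and C1s1 at chr6:124519269-124519568, all on the minus strand, and C1ra at chr6:124489114-124489413 on the plus strand. The start of C1s1 lies within the annotated gene, which has longer transcripts.
Cfb: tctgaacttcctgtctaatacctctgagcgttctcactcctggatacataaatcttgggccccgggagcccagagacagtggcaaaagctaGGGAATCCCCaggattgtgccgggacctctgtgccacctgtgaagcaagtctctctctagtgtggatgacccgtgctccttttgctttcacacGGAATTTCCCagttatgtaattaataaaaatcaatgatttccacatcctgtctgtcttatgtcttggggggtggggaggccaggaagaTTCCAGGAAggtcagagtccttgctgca
C3: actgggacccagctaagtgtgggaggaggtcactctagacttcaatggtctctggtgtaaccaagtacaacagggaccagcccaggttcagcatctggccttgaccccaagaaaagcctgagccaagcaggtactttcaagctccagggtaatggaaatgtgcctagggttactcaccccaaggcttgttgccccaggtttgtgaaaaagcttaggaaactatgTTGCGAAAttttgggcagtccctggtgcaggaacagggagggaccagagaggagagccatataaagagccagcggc
C1ra: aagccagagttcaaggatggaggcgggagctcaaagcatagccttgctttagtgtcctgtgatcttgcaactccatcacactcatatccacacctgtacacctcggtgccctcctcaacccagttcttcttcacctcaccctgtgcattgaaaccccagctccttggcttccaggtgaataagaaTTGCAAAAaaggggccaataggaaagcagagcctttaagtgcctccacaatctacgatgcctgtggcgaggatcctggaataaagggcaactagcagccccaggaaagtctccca
C1s1: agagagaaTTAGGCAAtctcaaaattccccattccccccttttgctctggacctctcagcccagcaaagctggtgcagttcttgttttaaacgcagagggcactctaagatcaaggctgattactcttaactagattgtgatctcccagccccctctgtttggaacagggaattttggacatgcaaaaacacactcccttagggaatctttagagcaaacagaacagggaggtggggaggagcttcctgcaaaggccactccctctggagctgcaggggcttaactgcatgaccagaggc
In Cfb, the first 2 stretches in capitals are NF-kB site matches that begin at positions -159 and -66 from the start site, and the last is a GAS match at position 23. The match at -66 is on the opposite strand only. C3 has a C/EBP match at -26, C1ra at -65 and C1s1 at -242, the last on the opposite strand. No match in the 4 windows overlaps another, and the matches at -159 and 23 in Cfb read as matches on both strands.

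Among all 9 members, 2 windows hold an NF-kB site (Cfb and C4b), 2 hold GAS (Cfb and C1qa), 3 hold C/EBP (C3, C1ra and C1s1) and 0 hold the ISRE core. C1qb, C1qc and Cfp hold none of the 4. Of 21757 windows of protein-coding genes, 8.97% hold the NF-kB site, 8.82% GAS, 10.7% C/EBP and 3.84% the ISRE core. C1qa, which holds a match, was tested and not called, while C4b, which also holds one, was too low to be tested. A match describes letters in the window, not binding.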

How the data were processed

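Each deposited value is a normalized count (signal of 1 gene in 1 sample), made by the authors from total RNA after rRNA depletion: trimming with cutadapt, removal of rRNA reads with Bowtie2, mapping to mm39 with STAR, counting with htseq-count in default mode, and DESeq2. Versions and annotation release are not given. Every value was a whole multiple (within 0.01) of the worth of 1 read, which gave the recovered reads. Identifiers were named by GENCODE release M39 (54749 of 55359). limma 3.58.1 (R 4.3.3) was fitted with a trend to log2(normalized count + 1) of 16309 genes, with 4 group means and 4 residual degrees of freedom (3 with the block), and was tested on simulated data. Alternatives were pseudocounts of 0.5 and 5, means above 0 and of at least 50, only the 2 groups compared, a replicate block, equal totals, edgeR 4.0.16 (TMM, quasi-likelihood), DESeq2 1.42.0, sums with near copies, and each sample left out; the canonical transcript length was added after the data were seen. Tables and plots used Python 3.11.15, pandas 2.3.3, numpy 2.4.6, scipy 1.17.1 and matplotlib 3.10.9. The members and lists were chosen with earlier results of these data known. Named are all members, listed complement genes called in any pairwise comparison, the 3 nearest genes of each member, and the leading and defining markers of each cell type list; Colec12, outside this rule, and Cxcl10 and Tnf as DESeq2 calls, were named after their values were seen. The lists are given without 3 of their genes, and C1qc without 1 of its 3 nearest genes.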

Additional observations from a re-analysis of the deposited data

Results flagged for a closer look

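For 2 complement genes outside the 9 members, both samples moved one way in one background and the opposite way in the other, with no overlap, which is why they are listed. That pattern is not itself a test of the difference, and limma's interaction term called neither. For C2, the count in Ctrl 1 came from 2 reads, under the floor of 3 reads, and Eff 1 at 12.3 lies just above Ctrl 2 at 11.6. C2, the classical pathway protease beside Cfb, was 0.93 higher on the log2 scale against Ctrl in Eff BMDM and -0.74 against LPS in LPSEff BMDM, a difference of -1.67 (unadjusted p 0.0598, limma adjusted p 1.00). C5ar2, a C5a receptor, was at 0.72 for Eff against Ctrl and -0.41 for LPSEff against LPS, a difference of -1.13 (unadjusted p 0.0898, limma adjusted p 1.00).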

How the results depend on the processing

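The calls of C3, Cfb, C3ar1 and Cd93 in LPS vs Ctrl and LPSEff vs Eff held under all alternatives that tested them, as did those of C1s1 and C1qbp in LPS vs Ctrl and of C1rl and C5ar2 in LPSEff vs Eff. Those of C1ra in both, of C1rl, C2 and C5ar2 in LPS vs Ctrl, and of C1s1 and C1qbp in LPSEff vs Eff did not, as given with each gene. With all samples kept, 159 of the tests on called differences kept direction and side of the threshold and 5 lost the threshold, and of those on differences not called 266 kept theirs, 2 passed the threshold and 6 changed sign. The 6 were C1qa in LPS vs Ctrl (0.0068 by edgeR, 0.054 by DESeq2), where the cause was not tested, and, with equal totals, C1qa in LPSEff vs Eff (-0.30), C1qb in LPS vs Ctrl (-0.30) and LPSEff vs Eff (-0.11) and C1qc in LPSEff vs Eff (-0.41), which all kept the main sign relative to the median of all tested genes. With a mean of at least 50, 2 members were called in each LPS/IFNγ comparison, since fewer genes were tested. The number of all genes called was 3910 in LPS vs Ctrl, 3213 in LPSEff vs Eff, 41 for Eff against Ctrl and 126 for LPSEff against LPS. It went to 5578 in LPSEff vs Eff with equal totals. In Eff vs Ctrl it went to 79 with a mean above 0, 20 with a mean of at least 50, 9 with only the 2 groups fitted, 14 by edgeR and 204 by DESeq2, and in LPSEff vs LPS to 66 with only the 2 groups and 368 by DESeq2; the cause was not tested. Without 1 sample these counts ranged from 2076 to 3562, 1567 to 3407, 0 to 45 and 0 to 84, where the lone sample of a group is assumed to vary like the other groups, and the members called ranged from 3 to 4 in LPS vs Ctrl and from 2 to 4 in LPSEff vs Eff. With 1 sample left out, some log2 differences turned in sign, and those of C1qa ranged from -1.09 to 0.86 in LPS vs Ctrl, -0.45 to 0.74 in LPSEff vs Eff, -0.55 to 0.79 in Eff against Ctrl, -0.59 to 1.36 in LPSEff vs LPS and -0.71 to 1.24 in the interaction. Those of C1qb ranged from -0.14 to 0.34 in LPS vs Ctrl and -0.28 to 0.20 in LPSEff vs LPS, and of C1qc ranged from -0.21 to 0.28 in LPSEff vs Eff and -0.24 to 0.38 in LPSEff vs LPS. Those of Cfb ranged from -0.58 to 0.068 in LPSEff vs LPS and -0.23 to 1.04 in the interaction, and of Cfp ranged from -0.54 to 0.0081 in LPS vs Ctrl, -0.21 to 0.019 in LPSEff vs Eff, -0.34 to 0.21 in Eff against Ctrl, -0.011 to 0.22 in LPSEff vs LPS and -0.10 to 0.44 in the interaction. None of these had been called. A gene at a few reads a sample, such as C4b or C1s1 in Ctrl, cannot show a change of modest size at this depth.

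With the sample number as a replicate block, 6717, 6033, 436 and 1137 genes were called for LPS/IFNγ in naïve and efferocytic BMDM and for efferocytosis without and with LPS/IFNγ, and 0 in the interaction, and the share of calls that were higher was 63.5% and 61.9% for efferocytosis without and with LPS/IFNγ, from 85.4% and 94.4%. The block added 1 member call, C1s1 in Eff vs Ctrl (log2 difference 2.92, limma adjusted p 0.00935, over a range of 0.00935 to 0.527 among the alternatives that keep all samples), and changed no other member call. C1s1 passed the filter on low counts only through the groups with LPS/IFNγ and is near 0 in Ctrl, so that this call carries no further weight. Deviations of same-numbered samples from their group means correlated across genes with r of 0.404 to 0.595 over the 6 pairs of groups, which describes genes, not independent replicates. The labels do not say that the numbers mark a shared preparation, and the cause was not tested.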
